A study of Mus musculus with 8 samples.

Results

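The peroxisome proliferator-activated receptors (PPARs), their obligate partners the retinoid X receptors (RXRs) and 4 of their coregulators were followed in mouse macrophages loaded with acetylated LDL (Ac-LDL), a modified lipoprotein that scavenger receptors take up. The group comprised 9 genes, the 5 receptor genes *Ppara*, *Ppard*, *Pparg*, *Rxra* and *Rxrb* and the 4 coregulator genes *Ppargc1b*, *Ncor1*, *Ncoa1* and *Nrip1*. Every probe annotated with one of these symbols was taken, which gave 16 probes of the 45281 on the array and 9 of 30789 gene symbols. The cells were thioglycollate-elicited peritoneal macrophages of C57/BL6 mice aged 8 weeks, that is, cells that an irritant broth recruits to the peritoneum. One group of 4 samples was kept with 120 μg per ml Ac-LDL for 24 h, and the other 4 samples were mock-treated controls. For peritoneal macrophages in general, the methods describe an adherent culture in medium conditioned by L-929 cells, a source of macrophage growth factor, and such cells are a model of lipid loading outside the vessel wall. The labels call the samples biological replicates 1 to 4 of each group but do not say whether each came from its own animals, so the p values measure the spread between these samples, which may be partly technical.

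PPARs bind DNA as heterodimers with an RXR and switch on genes of fatty acid uptake, storage and oxidation when fatty acids or their derivatives occupy the receptor. PPARα (*Ppara*) is best known from liver, PPARδ (*Ppard*) is widely expressed, and PPARγ (*Pparg*) drives fat cell differentiation and is also a known receptor of macrophages. Without ligand the heterodimer is held by corepressors such as NCoR1, and with ligand it recruits coactivators such as SRC-1 (*Ncoa1*) and the PGC-1 proteins.

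On the arrays 8 of the 16 probes, from 6 of the 9 genes, gave a signal above the negative controls on all 8 arrays. A probe was taken as detected at a detection P value of at most 0.05. The 6 genes were *Ppard*, *Pparg*, *Rxra*, *Rxrb*, *Ncor1* and *Ppargc1b*. *Ppara*, *Ncoa1* and *Nrip1* were detected on 0 of 8 arrays. In all, 7 of the 16 probes were detected on no array, those of these 3 genes included, and 1 probe of *Ncor1* on a single array. Detection was a property of the probe as well as of the gene, as each of the 4 genes with a detected probe and a further probe (*Ppard*, *Pparg*, *Rxrb* and *Ncor1*) also had a probe detected on at most 1 array. At a detection P value of at most 0.01, the same number of 8 probes was detected on at least 4 arrays. One of them, the *Pparg* probe ILMN_1221594, was then detected on 5 of 8 arrays, and the others on all 8. The probes are 50 bases long, and none of the 16 shared a run of 20 bases with a probe of another gene symbol on the array.

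**Figure D1:**
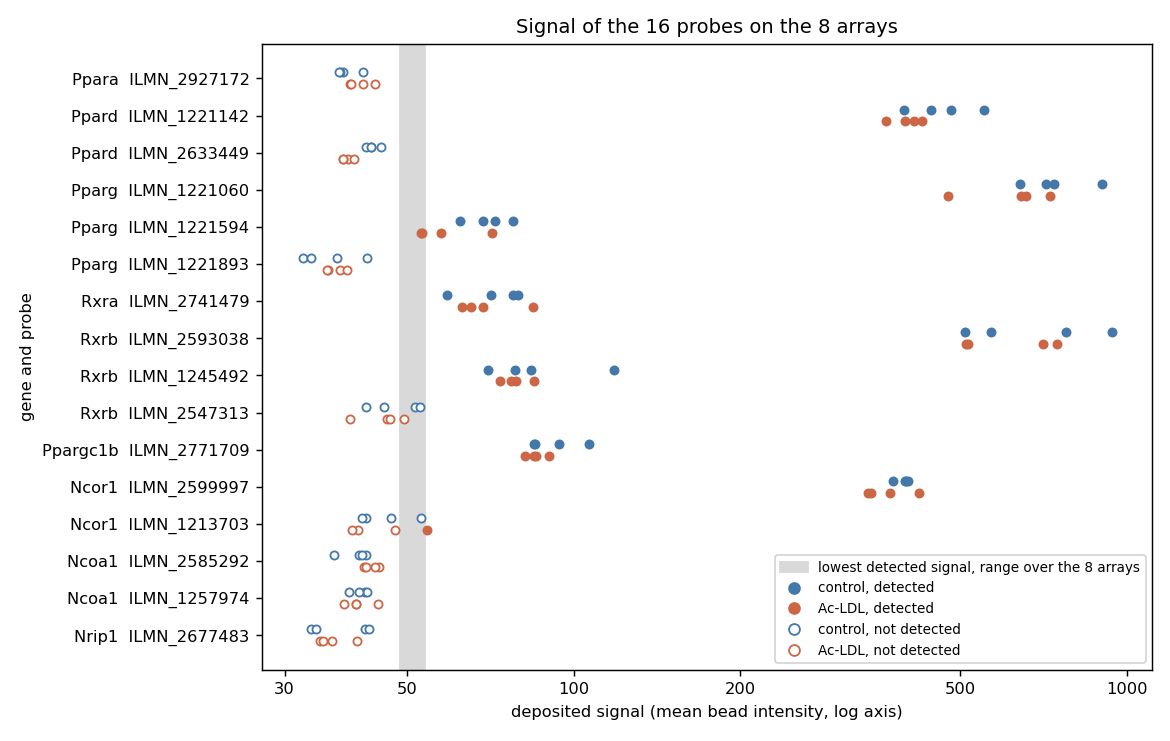
Deposited signal (mean bead intensity, log axis) of each of the 16 probes on the 4 control and 4 Ac-LDL arrays, with filled points where the detection P value was at most 0.05 and a grey band for the lowest detected signal, which was 48.4 to 53.8 over the arrays. All 8 points are filled for 8 probes, with 2 points of the dimmer Pparg probe inside the band at 52.9 and 53.1, 1 point is filled for a probe of Ncor1, and levels of different probes are not comparable with each other.

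Of the labelled cell type, 8 of 9 macrophage markers (among them *Emr1*, *Cd68*, *Csf1r* and *Itgam*) were detected on all 8 arrays, and the probe of *Msr1* on none. Of 5 fat cell markers, 4 (*Adipoq*, *Plin*, *Cidea* and *Cfd*) were detected on no array, as were all 4 eosinophil markers and 4 of 5 T cell markers. On at least 4 arrays, 1 of 3 B cell markers (*Ms4a1*) and 1 of 4 neutrophil markers (*S100a8*) were detected. Of 6 fibroblast and mesothelial markers, 5 were detected on all 8 arrays, with summed signals of 12880 to 18210 on the control and 12710 to 14290 on the Ac-LDL arrays, so that some stromal RNA was present in both groups. Its part in the levels given here was not tested, and in such bulk samples fewer cells of a type and less RNA per cell cannot be told apart. Each array detected 36.8% to 38.5% of its probes, and the member signals each rested on 24 to 68 beads. Slide 1 carried replicates 1 and 2 of both groups, and slide 2 carried the rest.

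For the comparison of 4 Ac-LDL with 4 control arrays, the signals were background-corrected, quantile-normalized and put on the log2 scale, and limma's moderated test was run on the 17122 probes detected on at least 4 arrays. None of the 8 member probes was called at a Benjamini-Hochberg adjusted p under 0.05, where 7 of all tested probes (0.0409%) were called. An unadjusted p under 0.05 was found for 1 of the 8, against 5.2% of all tested probes. No member probe was called with the replicate number as a block either (0 of 8, against 0.444% of all probes) or with the slide as a block (0 of 8, against 0.321%). The methods' t-test called 0 of all 17122 probes after adjustment and so none of the 8, and 1 of the 8 had an unadjusted p under 0.05, where 1039 of all probes did. The median log2 fold change of the 8 probes was -0.034, beside 0.0012 over all tested probes, and 6 of the 8 had a lower mean with Ac-LDL, beside 49.6% of all. This count and median rested on single arrays, as 3 of the 8 were lower without control replicate 1 (median 0.026), without control replicate 2 (median 0.0090) or without Ac-LDL replicate 4 (median 0.014). The median was also above 0 within slide 2 (0.010) and without both arrays of replicate 1 (0.0082), with 4 of 8 lower in each, and median scaling gave 8 of 8 lower and a median of -0.12, beside -0.091 for all tested probes. The control and Ac-LDL arrays overlapped for all 8 probes. Over all tested probes, 1.68% had all Ac-LDL values below all control values. That share covers the lower direction only, and the share with all Ac-LDL values above was not counted.

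*Pparg* was represented by 3 probes, which the annotation places in one transcript (NM_011146.2) on chromosome 6 and which separate one of its starts from exons further downstream. The gene has alternative starts, and the protein form gamma2, known as the fat cell form, begins with residues of its own that the more widely expressed gamma1 form lacks. The sequences are shown because the 3 probes differed in detection. Capitals in the first 2 lines mark the 22 bases that the probe nearest the start of that transcript (ILMN_1221893) shares with the end of a RefSeq promoter window.
ILMN_1221893, transcript position 22: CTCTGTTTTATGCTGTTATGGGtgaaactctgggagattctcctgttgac
last 30 bases of the RefSeq window: cagcaaatCTCTGTTTTATGCTGTTATGGG
ILMN_1221594, transcript position 287: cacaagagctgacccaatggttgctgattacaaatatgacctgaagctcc
ILMN_1221060, transcript position 1436: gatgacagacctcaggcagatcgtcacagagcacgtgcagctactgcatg

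RefSeq lists 3 starts of *Pparg* in its table of promoter windows for GRCm38.p6, each window covering 250 bases before to 50 bases after a start. The shared 22 bases lie at chr6:115422094-115422115 on the plus strand of that build, in the window of the most downstream start, which is 60922 bases beyond the first. The windows of the other 2 starts do not end in the probe's first bases, and none of the other windows among the 32851 in the table ends in these 22 bases. Only the ends of the windows were compared. The ATG at base 18 of the probe, after 17 bases, lies at transcript position 39, and the reading frame that it sets is free of stop codons through all 3 probes (11, 16 and 16 codons). By their transcript positions the 2 inner probes lie downstream of this ATG. The sequence between the probes was not read, so the absence of stop codons within them does not establish a shared frame. In the deposited annotation, which names no genome build, the probes are at chr6:115372112-115372161, chr6:115390024-115390073 and chr6:115440093-115440142. That annotation does not use GRCm38, as the start coordinate of 9 of the 13 member probes with coordinates fell outside the gene in that build.

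The probe at the downstream start was detected on 0 of 8 arrays. Its deposited signal was 37.3, 32.3, 42.3 and 33.5 on control arrays 1 to 4 and 37.8, 36.0, 35.8 and 38.8 on Ac-LDL arrays 1 to 4, with detection P values of 0.358 to 0.950. All 8 signals were thus below the lowest detected signal of any array, and no fold change is given. Both inner probes were detected on all 8 arrays. The data therefore show *Pparg* mRNA in control and Ac-LDL-treated macrophages by the inner probes, and no detectable signal from the probe at the start of the gamma2 form. As undetected probes also occurred for other genes with a detected probe, the absence of a signal from this probe does not by itself measure the gamma2 transcript.

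The brightest *Pparg* probe (ILMN_1221060) had normalized log2 intensities of 9.57, 9.60, 9.40 and 9.09 on control arrays 1 to 4 and 9.61, 9.39, 9.31 and 8.92 on Ac-LDL arrays 1 to 4. The groups overlapped, and replicate 4 was the lowest array of each group. The control arrays averaged 9.41 ± 0.24 (SD, n = 4) against 9.31 ± 0.29 (SD, n = 4) with Ac-LDL. This was a log2 fold change of -0.11 (standard error, SE, 0.16, 95% interval -0.47 to 0.25, limma adjusted p = 0.989), a 0.928-fold level with an interval of 0.722-fold to 1.19-fold, and Ac-LDL was lower in 3 of 4 pairs of the same replicate number. Without Ac-LDL replicate 4 the log2 fold change was 0.021. An exact two-sided permutation test over the 70 assignments of the arrays gave p = 0.629, where the smallest p that 4 against 4 allow is 0.0286.

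The dimmer inner probe (ILMN_1221594) gave the largest difference among the 8 member probes. Its log2 intensities were 5.45, 5.43, 5.60 and 5.31 on the control arrays and 5.01, 5.14, 5.44 and 4.87 on the Ac-LDL arrays. Ac-LDL was lower in 4 of 4 pairs, by a log2 difference of -0.44, -0.29, -0.17 and -0.44, but the groups overlapped because Ac-LDL array 3 lay within the control range. Of all tested probes, 10.3% were lower in 4 of 4 pairs, and 1 of the 8 member probes was. Control macrophages averaged 5.45 ± 0.12 (SD, n = 4) and Ac-LDL-treated ones 5.11 ± 0.24 (SD, n = 4), a log2 difference of -0.34 (SE 0.13, 95% interval -0.63 to -0.047, unadjusted p = 0.0269, limma adjusted p = 0.880). It ranked 521 of the 17122 probes by p. The adjusted p was 0.153 when blocked by replicate number and 0.321 when blocked by slide, and the exact two-sided permutation test gave p = 0.0857. Without background correction the log2 difference was -0.16 (95% interval -0.33 to 0.00034), and with an offset of 50 it was -0.18. The probe was close to background, with deposited signals of 62.2 to 77.7 on the control and 52.9 to 71.1 on the Ac-LDL arrays and detection P values of up to 0.0363.

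The log2 ratio of the dimmer to the brighter *Pparg* probe on the same array was lower with Ac-LDL in 4 of 4 pairs, with a mean change of -0.23. The exact two-sided permutation test of this ratio gave p = 0.257 (0.514 when adjusted over the *Pparg* and *Rxrb* ratios tested), so that a difference between the 2 probes in their response was not shown. This ratio was examined after the values had been seen.

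**Figure D2:**
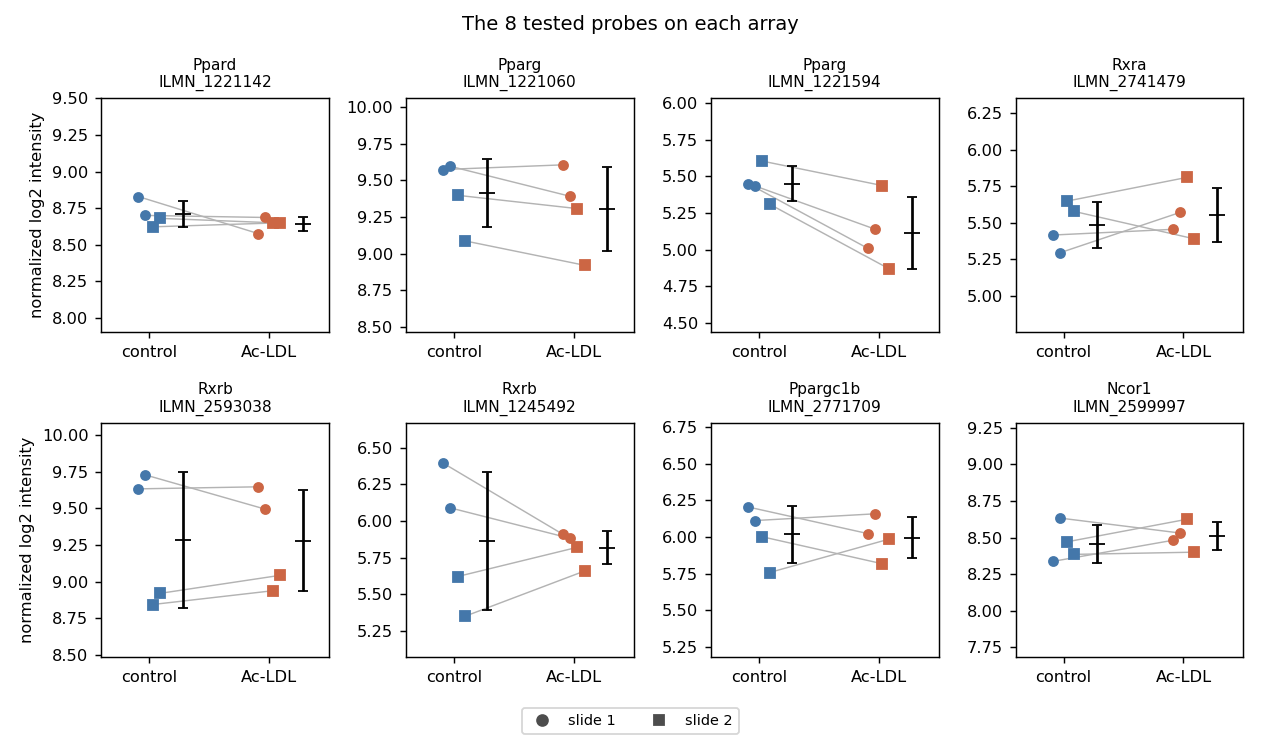
Normalized log2 intensity of each of the 8 tested probes on the 4 control and 4 Ac-LDL arrays, with grey lines joining arrays of the same replicate number, circles for slide 1, squares for slide 2, and black bars for the mean and SD of each group. Every panel spans the same range of 1.6 log2 units, the groups overlap in all of them, and the *Rxrb* and *Ppargc1b* values part by slide.

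*Ppard*, the most widely expressed of the PPAR genes across tissues, was detected on all 8 arrays by the probe ILMN_1221142 at transcript position 3072 (chr17:28438268-28438317 in the deposited annotation). Its log2 intensities were 8.83, 8.70, 8.62 and 8.68 on control arrays 1 to 4 and 8.58, 8.69, 8.65 and 8.65 on Ac-LDL arrays 1 to 4. Control array 1 was the highest and Ac-LDL array 1 the lowest, and the rest lay between 8.62 and 8.70. The log2 fold change was -0.068 (SE 0.087, 95% interval -0.26 to 0.12, limma adjusted p = 0.987), and the interval corresponds to 0.834-fold to 1.09-fold, the narrowest of the 8 probes. The exact two-sided permutation test gave p = 0.257. Of the pairwise differences, replicate 1 had -0.25 and the other 3 were between -0.032 and 0.026. The second *Ppard* probe (ILMN_2633449) was detected on 0 of 8 arrays, at signals of 38.3 to 44.9.

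The *Ppara* gene, whose receptor governs fatty acid oxidation in liver, had 1 probe (ILMN_2927172, chr15:85630046-85630095 in the deposited annotation), and it was detected on 0 of 8 arrays. Its signals were 37.6 to 41.5 on the control arrays and 39.4 to 43.7 on the Ac-LDL arrays, with detection P values of 0.225 to 0.704. All were below the lowest detected signal of any array, and no fold change is given.

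Both RXR genes of the group were detected. *Rxra*, the RXR gene best studied in macrophages, had 1 probe (ILMN_2741479, chr2:27615307-27615356 in the deposited annotation), with log2 intensities of 5.42, 5.30, 5.65 and 5.58 on the control arrays and 5.46, 5.57, 5.81 and 5.39 on the Ac-LDL arrays. The values of the 2 groups interleaved. The log2 fold change was 0.072 (SE 0.12, 95% interval -0.20 to 0.34, limma adjusted p = 0.990), and Ac-LDL was higher in 3 pairs and lower in 1 pair. On slide 2 alone it was -0.012. With median scaling in place of quantile normalization it was -0.0013, but that scaling set the median of all tested probes at -0.091, so that *Rxra* lay above that median.

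*Rxrb* encodes the partner receptor RXRβ. Its brightest probe (ILMN_2593038, chr17:34175258-34175307 in the deposited annotation) had log2 intensities of 9.63, 9.73, 8.84 and 8.92 on control arrays 1 to 4 and 9.65, 9.50, 8.94 and 9.04 on Ac-LDL arrays 1 to 4. The arrays parted by slide and not by treatment, with all 4 arrays of slide 1 above all 4 arrays of slide 2 and a slide difference of -0.69 on the log2 scale (second minus first). The Ac-LDL difference was -0.00087 (SE 0.24, 95% interval -0.53 to 0.52, limma adjusted p = 1.00), which narrowed to an interval of -0.19 to 0.19 with the slide as a block and -0.20 to 0.20 when blocked by replicate number. Within slide 1 it was -0.11 and within slide 2 it was 0.11.

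A dimmer *Rxrb* probe, ILMN_1245492 at transcript position 1505 (chr17:34174161-34174210 in the deposited annotation), is shown because it had the lowest interaction p of treatment and slide among the 8 member probes, 4 of which had opposite signs on the 2 slides.
ILMN_1245492: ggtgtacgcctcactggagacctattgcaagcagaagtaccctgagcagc
Its log2 intensities were 6.40, 6.09, 5.62 and 5.35 on the control arrays and 5.91, 5.88, 5.82 and 5.66 on the Ac-LDL arrays. The control arrays spread more widely than the Ac-LDL arrays, with an SD of 0.47 beside 0.11 (n = 4 each). Ac-LDL was lower in both pairs of slide 1, by a mean log2 difference of -0.35, and higher in both pairs of slide 2, by 0.26. The interaction of treatment and slide was 0.60 with an unadjusted p of 0.0160 and an adjusted p of 0.540 from limma, so that a different effect on the slides was not called. An unadjusted interaction p under 0.05 was found for 1 of the 8 member probes and for 1435 of the 17122 tested probes. Over both slides the log2 fold change was -0.046 (95% interval -0.49 to 0.40, adjusted p = 0.994). This probe too was higher on all 4 arrays of slide 1 than on all 4 of slide 2. The remaining *Rxrb* probe (ILMN_2547313) was detected on 0 of 8 arrays, with signals of up to 52.8.

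The slides did not overlap for 3 of the 8 member probes, the 2 *Rxrb* probes and that of *Ppargc1b*, where 24.2% of all tested probes had no overlap between slides. For these probes the slide difference was larger than the difference between treatments. Both groups were spread evenly over the slides, 2 arrays on each. A slide offset equal for both groups therefore cancels in the mean difference between treatments.

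*Ncor1* encodes the corepressor NCoR1, which holds unliganded nuclear receptors in a repressive complex with a histone deacetylase. It had 2 probes in the same transcript (NM_011308.2), shown because one was detected on all 8 arrays and the other on 1.
ILMN_2599997, transcript position 7165: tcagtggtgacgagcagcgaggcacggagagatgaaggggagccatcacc
ILMN_1213703, transcript position 6337: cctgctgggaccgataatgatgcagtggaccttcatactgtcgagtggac
The detected probe (chr11:62134505-62134554 in the deposited annotation, minus strand) had log2 intensities of 8.34, 8.63, 8.47 and 8.39 on control arrays 1 to 4 and 8.48, 8.53, 8.63 and 8.40 on Ac-LDL arrays 1 to 4. The groups covered nearly the same range. The log2 fold change was 0.053 (SE 0.099, 95% interval -0.17 to 0.27, limma adjusted p = 0.990), corresponding to an interval of 0.890-fold to 1.21-fold. It was -0.068 with median scaling, under which the median of all tested probes was -0.091. The other probe, upstream in the transcript, had signals of 39.7 to 54.3 and was detected only on Ac-LDL array 3 (detection P value 0.0353).

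*Nrip1*, the gene of the corepressor RIP140, had 1 probe (ILMN_2677483, chr16:76291171-76291220 in the deposited annotation), and it was detected on 0 of 8 arrays. Its signals of 33.5 to 42.7 in control and 34.8 to 40.5 in Ac-LDL-treated macrophages lay below the lowest detected signal of any array.

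Of the coactivator genes, *Ncoa1* was not detected. SRC-1, its product, is a histone acetyltransferase that binds liganded receptors. Its 2 probes, ILMN_2585292 and ILMN_1257974, carry no chromosomal position in the annotation. Their signals were 36.9 to 44.5 and 38.4 to 44.4 over the 8 arrays, with 0 of 8 arrays detected for each.

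*Ppargc1b*, the gene of PGC-1β, a coactivator known for driving mitochondrial oxidative genes, was detected on all 8 arrays by its only probe (ILMN_2771709, chromosome 18). Its log2 intensities were 6.20, 6.11, 6.001 and 5.76 on the control arrays and 6.02, 6.16, 5.82 and 5.99 on the Ac-LDL arrays. The pairs were split, with Ac-LDL lower in 2 and higher in 2. The log2 fold change was -0.022 (SE 0.12, 95% interval -0.29 to 0.25, limma adjusted p = 0.996). Within slide 1 it was -0.068 and within slide 2 it was 0.023.

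**Figure D3:**
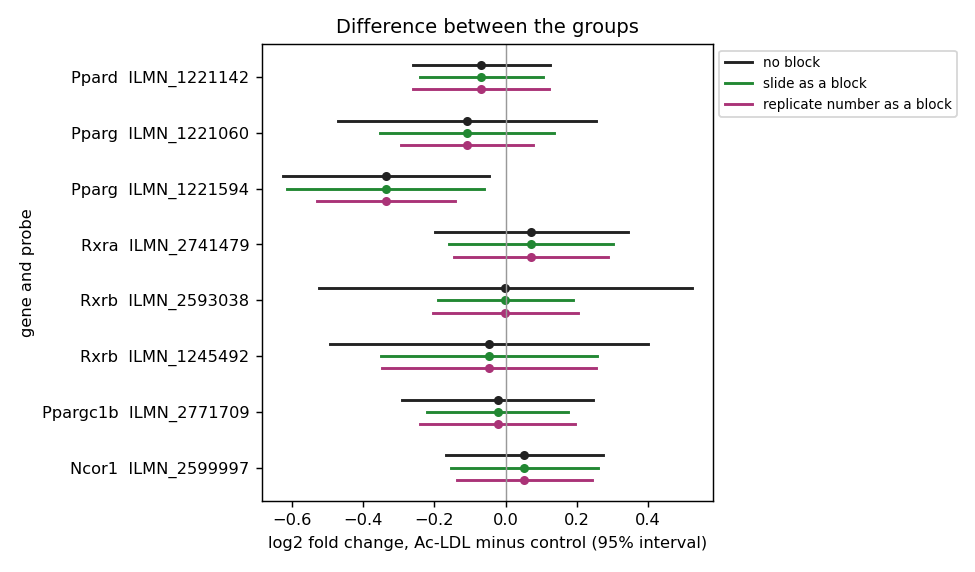
Log2 fold change (Ac-LDL minus control, points) of the 8 tested probes with 95% intervals from limma (horizontal bars), without a block, blocked by slide and blocked by replicate number. The intervals of 7 probes include 0 in each fit. That of the dimmer Pparg probe runs from -0.63 to -0.047 without a block (limma adjusted p = 0.880). It runs from -0.61 to -0.060 blocked by slide (adjusted p = 0.321) and from -0.53 to -0.14 blocked by replicate number (adjusted p = 0.153).

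Across the 8 probes, the 95% intervals without a block reached down to 0.648-fold and up to 1.44-fold. The low bound is that of the dimmer *Pparg* probe and the high bound that of the brightest *Rxrb* probe, and other probes, such as that of *Ppard*, had narrower intervals.

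Further receptors and coregulators that share RXR partners or PPAR cofactors were counted from a list of 35 genes, of which 33 were on the array and 25 were tested. None of the 25 was called by limma (0, against 0.0409% of all probes), and 1 had an unadjusted p under 0.05 (against 5.2%). With Ac-LDL 11 were higher and 14 lower (49.6% of all probes were lower), with a median log2 fold change of -0.016. With the replicate block 0 were called (against 0.444%), and with the slide block also 0 (against 0.321%). The 2 highest were *Nr1h3*, encoding the oxysterol receptor LXRα, with a log2 fold change of 0.36 (SE 0.11, limma adjusted p = 0.703), and *Crebbp*, encoding the acetyltransferase CBP, with 0.25 (SE 0.18, limma adjusted p = 0.967). The 2 lowest were *Sirt1*, encoding a deacetylase, with -0.25 (SE 0.14, limma adjusted p = 0.960), and *Rarg*, encoding a retinoic acid receptor, with -0.22 (SE 0.17, limma adjusted p = 0.969). Control macrophages had a mean *Nr1h3* log2 intensity of 8.92 ± 0.16 (SD, n = 4), beside 9.29 ± 0.098 (SD, n = 4) after Ac-LDL. The list's other RXR gene, *Rxrg*, and the gene of the other PGC-1 coactivator, *Ppargc1a*, had no tested probe.

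Of 36 PPAR target genes drawn up from general knowledge, 35 were on the array and 20 were tested. With Ac-LDL 18 of the 20 were higher and 2 lower, with a median log2 fold change of 0.24 beside 0.0012 over all tested probes. Of the 20, 1 was called (against 0.0409% of all probes) and 7 had an unadjusted p under 0.05 (against 5.2%). The called gene was *Angptl4*, encoding an inhibitor of lipoprotein lipase, and it was also the 1 gene called with either block. Its log2 fold change was 1.48 (SE 0.20, limma adjusted p = 0.0484). The adjusted p lay close to the threshold, and *Angptl4* was called under 10 of 25 alternative settings, with a log2 fold change of 1.20 to 1.595 and an adjusted p of 0.00012 to 0.437 over them. *Angptl4* and *Acaa2* were among the genes the study singled out on these arrays and *Nr1h3* stands in both lists, so that the counts are not independent of the study's choice. The receptor and coregulator genes thus gave 0 called probes of 8 on the same arrays on which the targets had these counts, and the difference between the groups of genes was not tested.

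**Figure D4:**
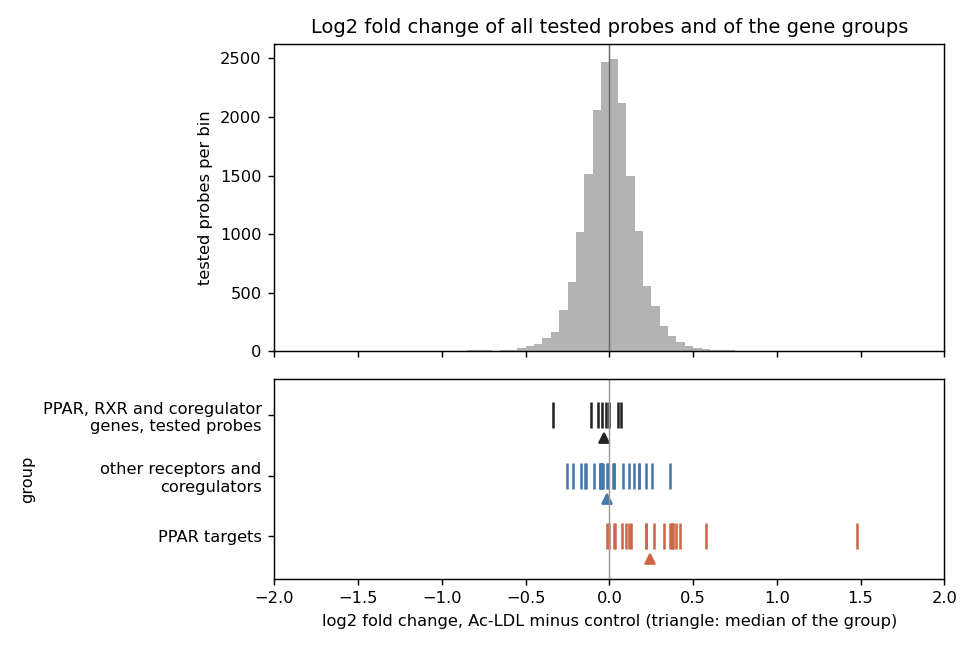
Upper panel, number of tested probes per bin of log2 fold change (Ac-LDL minus control, bins of 0.05) over all 17122 tested probes; lower panel, each tick a tested probe of the PPAR, RXR and coregulator genes or the brightest tested probe of a gene of the 2 lists, with triangles at the medians. The triangles stand at -0.034, -0.016 and 0.24.

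For the leading probe of each detected receptor gene, the tested probes with the most similar values over the 8 arrays were sought by Pearson's r, as a description of the best matches out of 17122. For *Pparg* they were those of *3110007F17Rik* (r = 0.985), *Gnl3* (r = 0.982) and *Rab9* (r = 0.982), with r of 0.954 to 0.970 after the slide means were removed. For *Ppard* they were *Sorbs3* (r = 0.957), *Rad52* (r = 0.940) and *Cops5* (r = 0.930), and for *Rxra* they were *Uba2* (r = 0.975), *Fut8* (r = 0.944) and *Hnrpa1* (r = 0.943). For *Rxrb* the best match was *Pomt2* (r = 0.991), with an r of 0.846 once the slide means were removed. No r expected for the best of so many probes over 8 arrays was computed, and the causes of these matches were not tested.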

How the data were processed

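RNA of the 8 samples was measured on Illumina Mouse WG-6 v2.0 bead chips. The labels give total RNA amplified to labelled cRNA, whereas the methods describe purified mRNA. As deposited, and exported from BeadStudio according to the labels, the values are the mean bead intensity per probe on the linear scale, not background-subtracted or normalized by the authors, the standard error of the beads and how many beads there were. The deposited detection p-value sets each probe against the negative control beads on the same array. The authors' own later normalization in GeneSpring GX was not used here. R 4.3.3 and limma 3.58.1 were used for normexp background correction with negative controls inferred from the detection p-values (offset 16), quantile normalization and log2 transformation (neqc), then lmFit and eBayes on the probes that at least 4 of 8 arrays detected (detection p-value at or below 0.05), 4 Ac-LDL against 4 control arrays without a block, as the methods' test is unpaired. P values were adjusted by Benjamini-Hochberg over all 17122 tested probes. The procedure was tested on simulated data.

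A gene with several tested probes is led by the one with the highest mean. Of the 2 gene lists, called genes were named, or else the 2 highest and 2 lowest. The members and lists were chosen with earlier results of these data known. Same-numbered control and Ac-LDL arrays deviated together (r = 0.579, 0.479, 0.468 and 0.629 across probes for replicates 1 to 4), so an alternative fit took the replicate number as a block. Different numbers on the same slide gave r of 0.188 to 0.447. Alternatives covered background correction, normalization, filter, blocks, slides, prior, test and omitted arrays. No 2 arrays had identical signals, and no per-sample column was left out.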

Additional observations from a re-analysis of the deposited data

How the results depend on the processing

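Of 25 alternatives, 0 called a member probe, with adjusted p values of 0.153 to 1.00 over all 8 probes. Of the 200 member values under them, 177 kept their sign and 23 turned it. The alternatives of filter, block, prior and test cannot change a fold change in this balanced design. Their signs, included among those kept here and below, were thus fixed in advance. *Ppard* kept its sign in 25 of 25 (log2 fold change -0.19 to -0.0029), as did the dimmer *Pparg* probe (-0.44 to -0.16). With median scaling, which moved the median of all tested probes to -0.091, *Rxra* was -0.0013 and *Ncor1* was -0.0680. Within slide 2, *Rxra* was -0.0123, *Rxrb* 0.108 by its brightest and 0.255 by its dimmer probe, and *Ppargc1b* 0.0231. With arrays left out singly or by replicate number, the brightest *Pparg* probe ran from -0.217 to 0.0205 (above 0 without Ac-LDL replicate 4), *Rxra* from -0.0124 (without Ac-LDL replicate 3) to 0.158, *Rxrb* from -0.147 to 0.148 by its brightest and -0.218 to 0.131 by its dimmer probe, and *Ppargc1b* from -0.110 to 0.0398. Both *Rxrb* probes turned positive without control replicate 1 or 2, Ac-LDL replicate 4 or both arrays of replicate 2, the brightest also without Ac-LDL replicate 3 and the dimmer also without both arrays of replicate 1. *Ppargc1b* turned positive without control replicate 1 or 2, Ac-LDL replicate 3, or both arrays of replicate 1 or of replicate 3. The causes were not tested.

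The 7 probes called over the whole array became 76 with the replicate block, 55 with the slide block, 26 with median scaling, 16 with a trended robust prior, 14 within slide 1, 16 within slide 2, 0 without a filter on dim probes and 0 with the methods' t-test (1039 with an unadjusted p under 0.05). With arrays left out, the count was 0 to 15, with 0 without Ac-LDL replicate 1, 2 or 3, control replicate 4 or any 1 replicate number, 1 without Ac-LDL replicate 4 and 15 without control replicate 2. The blocks changed no member's call. Probes near background, such as the dimmer *Pparg* probe and that of *Rxra*, limit what can be seen.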
